A study of Rattus norvegicus with 13 samples.

Results

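Carbonic anhydrases convert carbon dioxide and water into bicarbonate and a proton, and back. The enzymes differ in where they sit: some work in the cytosol, some in mitochondria, and some at the cell surface with the catalytic domain outside. Articular cartilage has no blood vessels, and its cells live in a matrix of low oxygen and make much of their energy by glycolysis, so acid and bicarbonate have to be moved through the matrix. The data described here are the signals of 5 carbonic anhydrase genes, Car2, Car3, Car8, Car9 and Car12, in rat articular chondrocytes. The genes were chosen by symbol, and Car3 was part of the reason for the choice because it is among the largest falls with interleukin-1β (IL-1β). All probe sets annotated to exactly 1 of these genes were taken, which gave 7 probe sets of 31042 on the array, and 5 of the 14217 genes with a probe set of their own.

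Chondrocytes were isolated from femoral head cartilage of male Wistar rats, pooled at the second passage and seeded into flasks, and each array holds the RNA of 1 flask. The 13 arrays fall into 4 groups. Cultures with glucosamine plus IL-1β (n = 4) received 20 mM glucosamine and, 6 hours later, 10 ng/ml IL-1β for 14 hours. Cultures with IL-1β (n = 4) received the same dose of IL-1β for 14 hours without glucosamine, cultures with glucosamine (n = 2) received 20 mM glucosamine for 20 hours, and untreated cultures (n = 3) received neither. IL-1β is an inflammatory cytokine that drives cartilage breakdown, and glucosamine is an amino sugar. Since all flasks came from a single pool of cells, the p-values measure the spread between flasks and not between animals. In RNA from whole cultures, fewer cells of a type and less RNA per cell cannot be told apart.

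Signals are the deposited linear intensities, 1 value per probe set and array. A signal at or under 5.71, the 25th percentile of all values, was set to that floor before log2 was taken, and a fold change, taken from means of these log2 values, is a lower bound where the dimmer group reaches the floor. Where a gene had more than 1 probe set of its own, its brightest one, by mean log2 signal, stands for it. Adjusted p-values are from limma with Benjamini-Hochberg adjustment over all 29263 tested probe sets, with 0.05 as the threshold and 2-sided tests. Array means ran from 128 to 146, and between 22130 and 25519 probe sets per array were above the floor. Dim signals were noisier on replicate d of glucosamine plus IL-1β and replicate d of IL-1β: the lowest 1% of their signals were under −36.8 and −31.0, and on the 11 remaining arrays under −6.47 to −4.81. Of 13 chondrocyte markers, 11 had a probe set, and the brightest one of all 11 was above the floor on every array. Their summed signal was 6255 to 7299 with glucosamine plus IL-1β, 5547 to 6719 with IL-1β, 7777 to 8096 with glucosamine and 10083 to 11355 in untreated cultures. Against untreated cultures 8 of the 11 passed as lower with both agents, 8 with IL-1β and 3 with glucosamine, and 0 as higher. The shares over all tested probe sets were 23.9%, 24.1% and 14.7%, in either direction.

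The 3 members with clear signals went different ways. Car9, a surface enzyme, and Car3, a cytosolic enzyme, were highest in untreated cultures and lower in all 3 treated groups, whereas Car8, a relative without catalytic activity, was lowest in untreated cultures and highest in both groups with glucosamine. Car2 and Car12 stayed close to the floor on most arrays and passed no test.

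**Figure D1:**
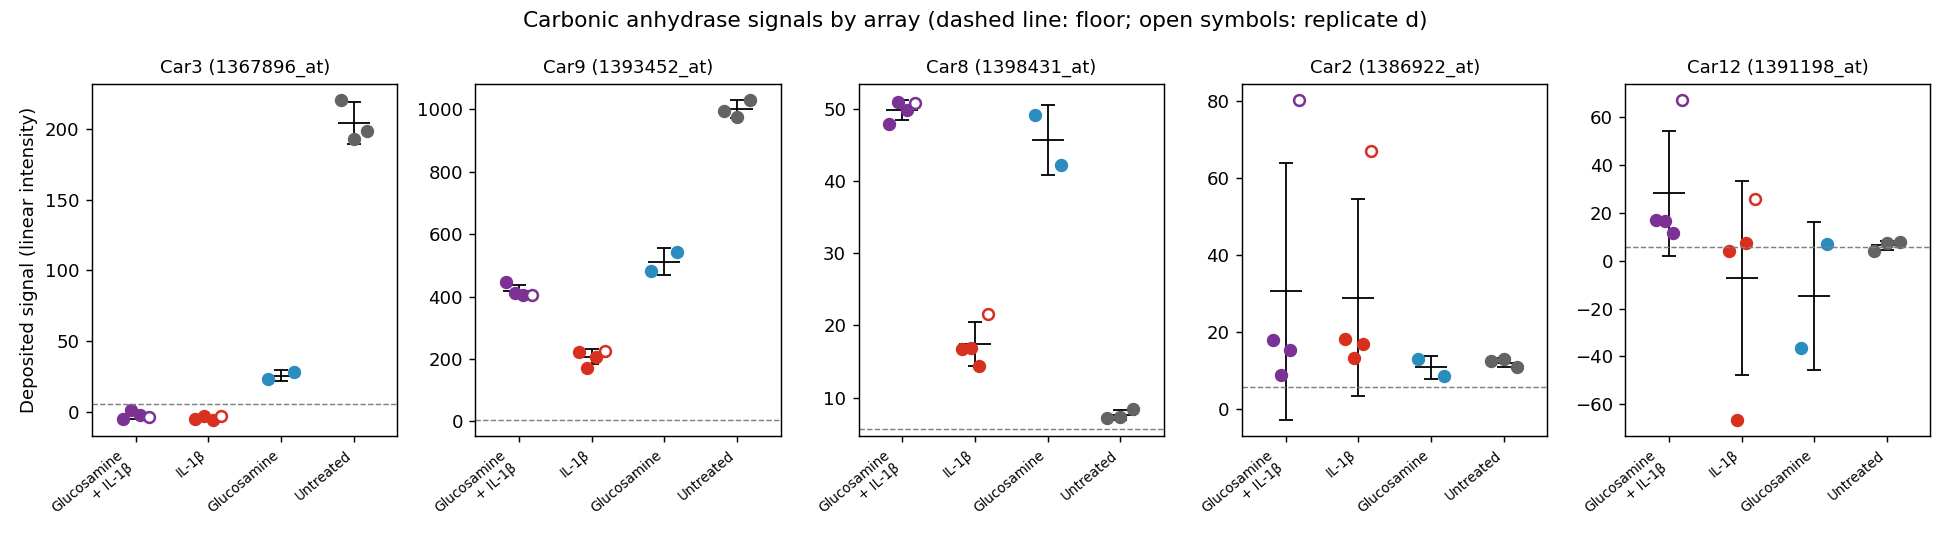
Deposited signal (linear intensity) of the representative probe set of each of the 5 carbonic anhydrases on each of the 13 arrays, by group, with the mean and SD of each group as bars. The dashed line is the floor of 5.71 and open symbols are replicate d arrays. Car3 is under the floor on all 8 arrays with IL-1β, the 4 groups of Car9 do not overlap, Car8 is high in both groups with glucosamine, and the highest Car2 and Car12 signals are those of the replicate d arrays.

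Car3 (1367896_at) encodes the cytosolic carbonic anhydrase III, which has a low catalytic activity and is abundant in skeletal muscle, fat and liver. With glucosamine plus IL-1β its signals were −4.67, 1.62, −2.03 and −3.58, with IL-1β −4.86, −2.88, −5.09 and −2.48, with glucosamine 23.2 and 28.6, and in untreated cultures 220.4, 193 and 198. All 8 arrays with IL-1β lay under the floor whether or not glucosamine was present, and the 2 glucosamine arrays lay between these and the untreated arrays without overlap. The fall with IL-1β was used to choose Car3, so it is given without a test: the log2 difference from untreated cultures was −5.15, a lower bound in size, and 1 of the 29263 tested probe sets had a lower value. Glucosamine without IL-1β left 12.7% of the untreated signal, a log2 fold change of −2.98 (SE 0.23). This comparison and that of both agents with untreated cultures (−5.15, a lower bound in size) share the untreated arrays with the fall that chose the gene, and no p is given for them.

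The means compared between glucosamine plus IL-1β and glucosamine come from none of the arrays that chose Car3. The spread in the test comes from the fit to all 13 arrays, which include those that chose it. On the log2 scale Car3 had a spread of 0 in both groups with IL-1β, because every array was set to the floor. The SE may therefore be too small. With glucosamine plus IL-1β against glucosamine, Car3 fell at least 4.51-fold (log2 fold change −2.17, SE 0.22, adjusted p = 0.00029 by limma). It was the 1 member of 5 that passed in this comparison, in which 1.79% of all tested probe sets passed (0.861% lower). Between glucosamine plus IL-1β and IL-1β, where all 8 arrays are under the floor, no difference could be measured.

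The second Car3 probe set (1386977_at) was dimmer and had the same order of groups where it could be read. Its signals ran from −15.4 to 1.74 with glucosamine plus IL-1β and from −3.50 to 2.81 with IL-1β, were 6.86 and 0.50 with glucosamine, and were 37.9, 38.8 and 32.9 in untreated cultures. Both glucosamine arrays lay far below the untreated arrays, at least 5.81-fold in the means. Because 1 of these 2 arrays is itself under the floor, the further fall with IL-1β on top of glucosamine could not be seen with this probe set (log2 fold change −0.13, adjusted p = 0.82 by limma).

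Car3 is also a gene of fat and muscle, so the markers of those tissues were read in the same arrays. Of 8 adipocyte markers with a probe set, the summed signal was 105 to 271 with glucosamine plus IL-1β, 675 to 1142 with IL-1β, 47.1 to 57.8 with glucosamine and 60.6 to 64.5 in untreated cultures. The adipocyte markers Adipoq, Cfd, Lep, Cidec and Pparg were under the floor on all untreated arrays. Lpl, a lipase that is also abundant in fat and muscle, averaged 5.21 with glucosamine plus IL-1β, 25.4 with IL-1β, 15.4 with glucosamine and 33.5 in untreated cultures. It fell with both agents (log2 fold change −2.19, adjusted p = 0.00013 by limma) and with glucosamine (−1.12, adjusted p = 0.047) against untreated cultures. Fabp4, a fatty acid carrier, carried most of the sum with IL-1β, at 817 ± 180.3 with IL-1β and 15.3 ± 1.57 in untreated cultures (SD, n = 4 and 3). With IL-1β against untreated cultures, 2 of the 8 adipocyte markers rose and 0 fell. These were Fabp4 (52.7-fold, adjusted p = 3.2e-09 by limma) and Cidec, at 49.1 with IL-1β (at least 8.38-fold, adjusted p = 1.4e-05). With both agents 1 rose, Fabp4 (6.46-fold, adjusted p = 1.8e-06), and 1 fell, Lpl. With glucosamine 0 rose and 1 fell, Lpl. Over all tested probe sets 24.1% passed with IL-1β, 23.9% with both agents and 14.7% with glucosamine, in either direction.
Of 11 muscle markers, the summed signal was 719 to 1032 with glucosamine plus IL-1β, 524 to 876 with IL-1β, 692 to 707 with glucosamine and 546 to 605 in untreated cultures. Most of this sum was Myh1, a myosin heavy chain, which averaged 620 with glucosamine plus IL-1β, 493 with IL-1β, 561 with glucosamine and 396 in untreated cultures. Whether the Myh1 probe set, whose name ends in x_at, also reads other transcripts was not tested. Against untreated cultures 3 of the 10 tested muscle markers rose and 1 fell with both agents (Myh1, Myod1 and Des higher), 2 rose and 1 fell with IL-1β (Myh1 and Myod1 higher), and 1 rose with glucosamine (Myh1). The marker that fell was Acta1, skeletal muscle actin, which averaged 12.4 with glucosamine plus IL-1β, 10.3 with IL-1β, 38.4 with glucosamine and 99.0 in untreated cultures (log2 fold change with IL-1β −3.34, adjusted p = 0.00010 by limma). In each of the 4 groups, 6 of the 11 muscle markers were above the floor on every array. Myoglobin (Mb) was under the floor on all 13 arrays. The shares of all tested probe sets that passed were again 23.9% with both agents, 24.1% with IL-1β and 14.7% with glucosamine. The part of other cell types in the Car3 signal was not tested further.

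The 3 genes nearest to Car3 over the 13 arrays, among 9506 genes and by the root mean square difference of their log2 signals from the untreated mean, were Tril at 0.25, Hpgd at 0.42 and Vegfd at 0.49. Tril encodes an accessory protein of Toll-like receptors, Hpgd the enzyme that inactivates prostaglandins, and Vegfd a growth factor of lymphatic vessels. All 3 were highest in untreated cultures and next highest with glucosamine. Tril averaged 3.78 with glucosamine plus IL-1β, 1.81 with IL-1β, 25.2 with glucosamine and 180 in untreated cultures. Hpgd averaged 8.46 with glucosamine plus IL-1β, 5.44 with IL-1β, 21.7 with glucosamine and 196 in untreated cultures. Vegfd averaged 2.53 with glucosamine plus IL-1β, 4.84 with IL-1β, 18.7 with glucosamine and 154 in untreated cultures. Likeness of this kind is a description over these arrays, taken on floored signals. In both groups with IL-1β, Car3 was under the floor on every array, and Tril and Vegfd averaged under it. Where 2 genes are both at the floor, their difference reflects only their untreated means.

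Car9 (1393452_at) encodes carbonic anhydrase IX, a surface enzyme with an outward catalytic domain. In human cells it is a classic target of hypoxia-inducible factor 1 (HIF-1), the transcription factor that switches on genes when oxygen is low, and a binding element for that factor lies close to the start of the human gene. The start of the rat gene is shown here because of that element in the human gene. RefSeq's annotation of the GRCr8 build places it on the + strand of chromosome 5, and the stretch chr5:62558924-62559043 covers 100 bases before the annotated start and the first 20 from it. Capitals mark the only match to the HIF core motifs ACGTG or GCGTG, searched on both strands over the 300-base window of the gene, here ACGTG on the opposite strand, from base 2 to base 6 counted from the start as base 1.
Car9 start: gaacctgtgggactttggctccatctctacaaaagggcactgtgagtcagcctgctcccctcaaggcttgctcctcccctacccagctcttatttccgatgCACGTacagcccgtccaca
Such short motifs are common: 41.6% of 33469 windows of this length hold at least 1, as do 12 of the 18 HIF target genes described below that have an entry. The window of Car12 holds 4 matches. These 2 members have an entry in the promoter table, and a match is a description of the sequence, not of binding.

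Car9 signals were 447, 411, 406 and 406 with glucosamine plus IL-1β, 223, 173, 208 and 226 with IL-1β, 481 and 542 with glucosamine, and 993, 976 and 1031 in untreated cultures. No 2 groups overlapped: untreated cultures were highest, then glucosamine, then both agents, and IL-1β was lowest. The difference of IL-1β from untreated cultures belongs to the comparison that chose the genes and is described without a test, as 20.6% of the untreated signal and a log2 difference of −2.28. Glucosamine lowered Car9 to 51.1% of the untreated signal (log2 fold change −0.97, SE 0.11, adjusted p = 7.8e-05 by limma). Both agents together lowered it to 41.7% (−1.26, SE 0.09, adjusted p = 1.0e-06 by limma). Both tests share the untreated arrays with the comparison that chose the genes, and their p-values are not independent of that choice.

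Cultures with both agents held more Car9 than those with IL-1β, by 2.02-fold (log2 fold change 1.02, SE 0.08, adjusted p = 3.4e-06 by limma). This test shares the IL-1β arrays with the comparison that chose the genes. Against glucosamine, the addition of IL-1β left 81.7% of the signal. The arrays of these groups did not overlap, as for 8.77% of all tested probe sets in that direction, but the difference did not pass the test (log2 fold change −0.29, SE 0.10, adjusted p = 0.33 by limma). The difference did pass with the methods' own test, an analysis of variance followed by Tukey's test on linear values, so the call depends on the test. Glucosamine was thus followed by less Car9 in cultures without IL-1β and by more Car9 in cultures with it.

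The genes nearest to Car9 by the same measure were Nrk, a kinase, at 0.15, Trib2, a pseudokinase, at 0.21 and Adgrl2, an adhesion receptor, at 0.22. Nrk averaged 56.0 with glucosamine plus IL-1β, 26.4 with IL-1β, 62.9 with glucosamine and 121 in untreated cultures. Trib2 averaged 57.1 with glucosamine plus IL-1β, 36.3 with IL-1β, 75.3 with glucosamine and 150.4 in untreated cultures. Adgrl2 averaged 108 with glucosamine plus IL-1β, 51.7 with IL-1β, 172 with glucosamine and 258 in untreated cultures. In each of them, as in Car9, untreated cultures were highest and IL-1β cultures lowest.

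Car8 (1398431_at) encodes a carbonic anhydrase related protein that has lost residues needed to bind zinc and so has no catalytic activity. In the mouse cerebellum it binds the type 1 inositol trisphosphate receptor (Itpr1), a calcium channel of the endoplasmic reticulum. Its signals were 47.8, 50.9, 49.8 and 50.8 with glucosamine plus IL-1β, 16.7, 16.9, 14.4 and 21.6 with IL-1β, 49.1 and 42.2 with glucosamine, and 7.15, 7.38 and 8.44 in untreated cultures. Untreated cultures were just above the floor, IL-1β cultures were above them without overlap, and both groups with glucosamine were higher again.
Glucosamine raised Car8 5.96-fold over untreated cultures (log2 fold change 2.58, SE 0.24, adjusted p = 2.6e-05 by limma). Both agents raised it 6.52-fold (2.71, SE 0.20, adjusted p = 1.8e-06 by limma). The difference of IL-1β from untreated cultures, described without a test, was 1.17 on the log2 scale. With both agents Car8 was 2.89-fold above IL-1β (1.53, SE 0.19, adjusted p = 9.5e-05 by limma). Against glucosamine the arrays with both agents overlapped (0.13, SE 0.23, adjusted p = 0.86 by limma). Of these Car8 tests, only the last compares groups whose arrays had no part in the comparison that chose the genes.

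The partner channel was read in the same arrays. Itpr1 averaged 193 with glucosamine plus IL-1β, 154 with IL-1β, 239 with glucosamine and 314 in untreated cultures, and fell with IL-1β (log2 fold change −1.04, adjusted p = 3.0e-05 by limma) and with both agents against untreated cultures (−0.71, adjusted p = 0.00066 by limma). Itpr3, another receptor of the family, averaged 312 with glucosamine plus IL-1β, 496 with IL-1β, 279 with glucosamine and 138 in untreated cultures, and rose in each of the 3 comparisons with untreated cultures. It was lower with both agents than with IL-1β (−0.66, adjusted p = 5.3e-05 by limma).
Nearest to Car8 were Adcy8, an adenylyl cyclase, at 0.21, Slc23a2, a vitamin C transporter, at 0.22 and Cd28, a co-stimulatory receptor known from T cells, at 0.31. Slc23a2, the brightest of them, averaged 740 with glucosamine plus IL-1β, 308 with IL-1β, 835 with glucosamine and 120 in untreated cultures. Adcy8 averaged 42.8 with glucosamine plus IL-1β, 14.8 with IL-1β, 33.3 with glucosamine and 0.54, under the floor, in untreated cultures. Cd28 averaged 54.0 with glucosamine plus IL-1β, 21.1 with IL-1β, 60.4 with glucosamine and 10.4 in untreated cultures.

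Car2 (1386922_at) encodes carbonic anhydrase II, the fast cytosolic enzyme of red cells, kidney and osteoclasts. Its signals were 17.99, 8.99, 15.2 and 80.5 with glucosamine plus IL-1β, 18.2, 13.3, 16.9 and 67.2 with IL-1β, 12.96 and 8.72 with glucosamine, and 12.4, 12.9 and 10.8 in untreated cultures. The 2 high values are those of the replicate d arrays, and the other 11 lay between 8.72 and 18.2. No tested comparison passed: the log2 fold change was 0.81 (SE 0.71, adjusted p = 0.49 by limma) for both agents against untreated cultures and 0.17 without the 2 replicate d arrays. Against IL-1β it was −0.12 (SE 0.66) and 0.40 without replicate d of IL-1β, against glucosamine 0.99 (SE 0.80), and for glucosamine against untreated cultures −0.18 (SE 0.85). The second Car2 probe set (1367733_at) was under the floor on every array except replicate d with both agents, where it read 6.72. Summed osteoclast markers (5 with a probe set) were 708 to 738 with glucosamine plus IL-1β, 2350.1 to 3008 with IL-1β, 717 to 761 with glucosamine and 580 to 609 in untreated cultures, and the rise with IL-1β lay mostly in Mmp9, a protease at 2194 with IL-1β that other cells also make.

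Car12 (1391198_at) encodes carbonic anhydrase XII, the other surface enzyme among the members. Its signals were 17.0, 16.8, 11.7 and 67.3 with glucosamine plus IL-1β, 4.09, −66.4, 7.52 and 25.8 with IL-1β, −36.7 and 7.18 with glucosamine, and 4.05, 7.46 and 7.68 in untreated cultures. All 4 arrays with both agents were above the floor and above every glucosamine and untreated array, and the remaining groups straddled the floor. Arrays stood apart in this way, on the high side, for 18.3% of all tested probe sets against untreated cultures and for 9.74% against glucosamine. The difference did not pass against untreated cultures (log2 fold change 1.66, SE 0.63, adjusted p = 0.082 by limma), against IL-1β (1.29, SE 0.58, adjusted p = 0.15) or against glucosamine (1.76, SE 0.71, adjusted p = 0.50). Without the 2 replicate d arrays it passed against untreated cultures (1.12, adjusted p = 0.0014 by limma), against IL-1β (1.25, adjusted p = 0.00076) and against glucosamine (1.22, adjusted p = 0.014). Without replicate d of IL-1β alone it passed against untreated cultures and IL-1β (adjusted p = 0.029 and 0.021), and without replicate d of glucosamine plus IL-1β alone it passed nowhere. With all 13 arrays it passed against untreated cultures and IL-1β after quantile normalization (adjusted p = 0.028 and 0.026 by limma), so the call depends on the processing.

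Car3 is left out of the counts against untreated cultures, since these arrays chose it. Of the other 4 members, 2 passed with glucosamine against untreated cultures, Car8 higher and Car9 lower, where 14.7% of all tested probe sets passed (7.14% higher and 7.56% lower). With both agents against untreated cultures, Car8 was again higher and Car9 lower, with 23.9% of all tested probe sets called (11.5% higher and 12.4% lower). Of the same 4 members, both agents against IL-1β passed for 2, Car8 and Car9, each higher, with 23.3% of all tested probe sets (11.9% higher). Car3 is left out here too, since the IL-1β arrays also chose it and every array compared was under the floor. Where IL-1β was set against untreated cultures, 24.1% of all tested probe sets passed, but that comparison chose the genes and no count of members is given. The comparisons share groups of arrays, and the counts are not independent of each other. Each of these counts also shares the untreated or the IL-1β arrays with the comparison that chose the genes.

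**Figure D2:**
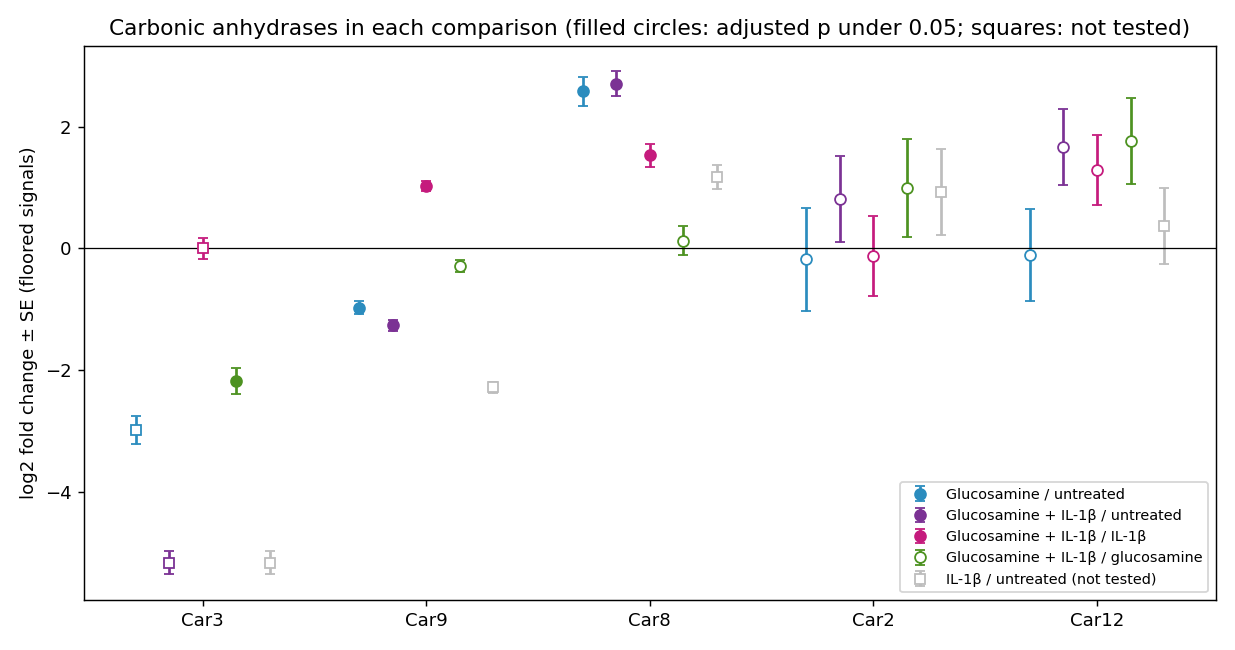
Log2 fold change (floored signals) with its SE for each of the 5 carbonic anhydrases in 5 comparisons, where filled circles passed at adjusted p under 0.05, open circles did not, and squares were not tested. Car8 and Car9 have small errors and lie on opposite sides of 0 against untreated cultures, while the errors of Car2 and Car12 reach 0.58 to 0.85.

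The array also holds 9 other carbonic anhydrase genes, 2 of which, Car5a (mitochondrial) and Car10 (without catalytic activity), were under the floor on all arrays. Of the 7 tested, none passed with glucosamine or with both agents against untreated cultures, or between both agents and glucosamine. By limma without adjustment, 0 of them had a p under 0.05 with glucosamine, and 1, Car5b, did in each of the other two comparisons, lower with both agents. Car5b lay at the threshold with both agents against untreated cultures (log2 fold change −0.35, adjusted p = 0.0504 by limma) and passed it under 12 of 26 alternatives. With IL-1β, 1 rose and 2 fell, and with both agents against IL-1β, 2 rose and 1 fell, each time Car4, Car5b and Car11. Of all tested probe sets, 24.1% passed with IL-1β and 23.3% with both agents against IL-1β.
Car4 (1368437_at), an enzyme anchored to the outer face of the membrane, was 6.72, 3.83, 2.23 and 21.7 with glucosamine plus IL-1β, 71.0, 43.4, 55.0 and 56.9 with IL-1β, 5.80 and 3.05 with glucosamine and 1.71, 1.95 and 2.03 in untreated cultures. IL-1β raised it at least 9.75-fold (adjusted p = 0.00011 by limma), and it was lower with both agents than with IL-1β (log2 fold change −2.75, adjusted p = 0.00029). The other Car4 probe set (1391132_at) did not move with it (log2 fold change −0.12 with IL-1β, adjusted p = 0.83), so the rise rests on 1 of 2 probe sets.
Car5b (1390807_at), a mitochondrial enzyme, averaged 91.4 ± 4.76 with glucosamine plus IL-1β, 52.5 ± 7.77 with IL-1β, 116 ± 8.54 with glucosamine and 116 ± 4.74 in untreated cultures (SD, n = 4, 4, 2 and 3). It fell 2.23-fold with IL-1β (adjusted p = 1.5e-05 by limma) and was 1.75-fold higher with both agents than with IL-1β (adjusted p = 0.00017). Its second probe set (1377573_at) fell 2.17-fold with IL-1β (adjusted p = 0.0031).
Car11 (1380675_s_at), which has no catalytic activity, fell by 0.31 on the log2 scale with IL-1β (adjusted p = 0.044) and was higher by 0.48 with both agents than with IL-1β (adjusted p = 0.0026 by limma). The fall with IL-1β lost its call under 12 of 27 alternatives, most of them the omission of 1 array. Of its other probe sets, 1374275_at fell by 1.25 with IL-1β (adjusted p = 0.0093 by limma) and 1391970_at had a log2 fold change of 1.20 (adjusted p = 0.32). Car1, Car6, Car7 and Car14 were near the floor and passed nowhere.

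In the rat genome Car2, Car3, Car1 and Car13 follow each other on chromosome 2 with no gene between them in RefSeq's annotation, and 3 of these 4 neighbours were on the array. Only Car3 among these 3 had a signal far above the floor in untreated cultures, where Car1 read from 3.14 to 6.02 and Car2 from 10.8 to 12.9. Neither neighbour passed in any tested comparison.

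**Figure D3:**
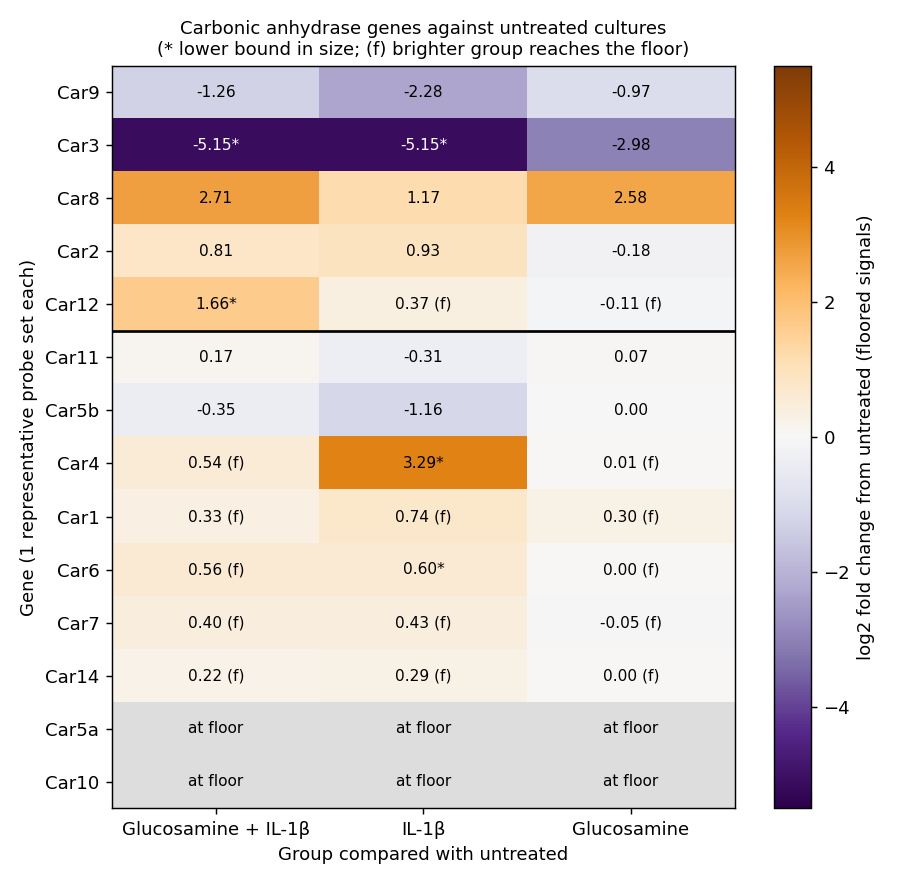
Log2 fold change against untreated cultures (floored signals) of the 14 carbonic anhydrase genes on the array, 1 row per gene with the 5 members above the line, in columns for glucosamine plus IL-1β, IL-1β and glucosamine. An asterisk marks a lower bound in size and (f) a value whose brighter group reaches the floor. With glucosamine, Car3 (−2.98), Car9 (−0.97) and Car8 (2.58) stand out, while the 7 other tested genes lie between −0.05 and 0.30.

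Surface carbonic anhydrases work beside carriers of bicarbonate, protons and lactate, which chondrocytes need to clear the acid of glycolysis, and 3 lists of such genes were read in the same fit. Over all tested probe sets, set against untreated cultures, 23.9% passed with both agents, 24.1% with IL-1β and 14.7% with glucosamine, with a median log2 fold change of 0.13 with both agents, 0.10 with IL-1β and 0 with glucosamine. Of 9 bicarbonate transporters tested, 3 rose and 1 fell with both agents against untreated cultures, 2 rose and 1 fell with IL-1β, and 2 rose and 1 fell with glucosamine. The median log2 fold change of the list was 0.59 with both agents, 0.23 with IL-1β and 0.09 with glucosamine. The gene that fell was each time Slc4a4, the sodium bicarbonate cotransporter NBCe1. It averaged 131 ± 7.16 with glucosamine plus IL-1β, 207 ± 11.7 with IL-1β, 185 ± 2.37 with glucosamine and 524 ± 11.7 in untreated cultures (SD, n = 4, 4, 2 and 3), and it also fell between both agents and glucosamine (log2 fold change −0.50, adjusted p = 0.0027 by limma) and between both agents and IL-1β (−0.66, adjusted p = 5.9e-06). Slc4a7, the related carrier NBCn1, rose 2.19-fold with IL-1β and 1.83-fold with glucosamine (adjusted p = 1.3e-06 and 0.00012 by limma). Slc26a6, an anion exchanger, rose 2.40-fold with glucosamine and 2.21-fold with both agents (adjusted p = 0.033 and 0.014).

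Of 10 genes of proton and lactate export, 3 rose and 1 fell with both agents, 2 rose and 1 fell with IL-1β, and 1 rose and 1 fell with glucosamine, against untreated cultures. The list medians were 0.20 with both agents, 0.16 with IL-1β and −0.02 with glucosamine. Slc16a1, the lactate carrier MCT1, averaged 476 ± 25.7 with glucosamine plus IL-1β, 1002 ± 214 with IL-1β, 386 ± 0.39 with glucosamine and 281 ± 19.6 in untreated cultures. It rose 3.52-fold with IL-1β (adjusted p = 1.1e-06 by limma) and was 2.07-fold lower with both agents than with IL-1β (adjusted p = 6.8e-05). Slc16a7, the carrier MCT2, fell in the same 3 comparisons with untreated cultures and averaged 105 with glucosamine plus IL-1β, 242 with IL-1β, 103 with glucosamine and 355 in untreated cultures. Emb, a partner protein of such carriers, rose 1.44-fold with IL-1β (adjusted p = 0.013). Slc9a8, a sodium/proton exchanger of the Golgi, was higher with glucosamine by 2.02-fold (adjusted p = 0.014) and with both agents by 1.90-fold (adjusted p = 0.0051).

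The vacuolar proton pump had 22 subunit genes tested. With both agents 11 rose and 1 fell, with IL-1β 7 rose and 2 fell, and with glucosamine 8 rose and 1 fell, against untreated cultures. Of all tested probe sets, 11.5% rose with both agents and 7.14% with glucosamine. The list medians were 0.41 with both agents (0.13 over all tested probe sets), 0.21 with IL-1β (0.10) and 0.35 with glucosamine (0). Atp6v1b2 rose 2.11-fold with both agents, 2.35-fold with IL-1β and 1.91-fold with glucosamine, and Atp6v0b rose 2.02-fold with both agents, 2.21-fold with IL-1β and 2.01-fold with glucosamine. Atp6v1c2, an alternative C subunit, was under the floor with glucosamine and with both agents, at least 4.27-fold below untreated cultures (adjusted p = 0.00029 and 3.5e-05 by limma).

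Since Car9 is known as a HIF target, 21 other HIF targets were read beside it. Against untreated cultures, 8 rose and 4 fell with both agents, 10 rose and 5 fell with IL-1β, and 5 rose and 2 fell with glucosamine. Of all tested probe sets, 23.9% passed with both agents, 24.1% with IL-1β and 14.7% with glucosamine, in either direction. The medians were 0.20 with both agents, 0.50 with IL-1β and 0.18 with glucosamine. Egln3, a prolyl hydroxylase that marks HIF for degradation, averaged 196 ± 16.6 with glucosamine plus IL-1β, 866 ± 77.9 with IL-1β, 32.6 ± 0.55 with glucosamine and 17.9 ± 2.46 in untreated cultures. It rose 48.5-fold with IL-1β (adjusted p = 4.1e-11 by limma), and it was the 1 of the 21 that rose with both agents against glucosamine (5.99-fold, adjusted p = 5.6e-07). Vegfa, an angiogenic factor, averaged 607 with glucosamine plus IL-1β, 818 with IL-1β, 493 with glucosamine and 184 in untreated cultures, and rose 3.26-fold with both agents, 4.44-fold with IL-1β and 2.67-fold with glucosamine. Hk2, a hexokinase, rose 3.95-fold with IL-1β and 2.21-fold with glucosamine, and Pfkfb3, a regulator of glycolysis, 2.49-fold with glucosamine (adjusted p = 2.0e-05).
Between both agents and IL-1β, 7 of the 21 rose and 8 fell, with a median of −0.21 against 0.03 over all tested probe sets, of which 23.3% passed. Egln3 was 4.42-fold lower and Adm, a vasodilator peptide, 2.82-fold lower with both agents than with IL-1β (adjusted p = 4.5e-08 and 2.5e-08), and Ankrd37 was 3.43-fold higher (adjusted p = 0.00034). Aldoc, an aldolase of glycolysis, fell 3.64-fold with both agents against untreated cultures (adjusted p = 0.0077). Over the 4 groups, the means of Egln3 and Vegfa had the reverse order of those of Car9. The order was not counted over the 21 targets. Some moved as Car9 did: 5 of the 21 fell with IL-1β against untreated cultures (10 rose), and 7 rose between both agents and IL-1β (8 fell). A link of Car9 to HIF was not tested.

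**Figure D4:**
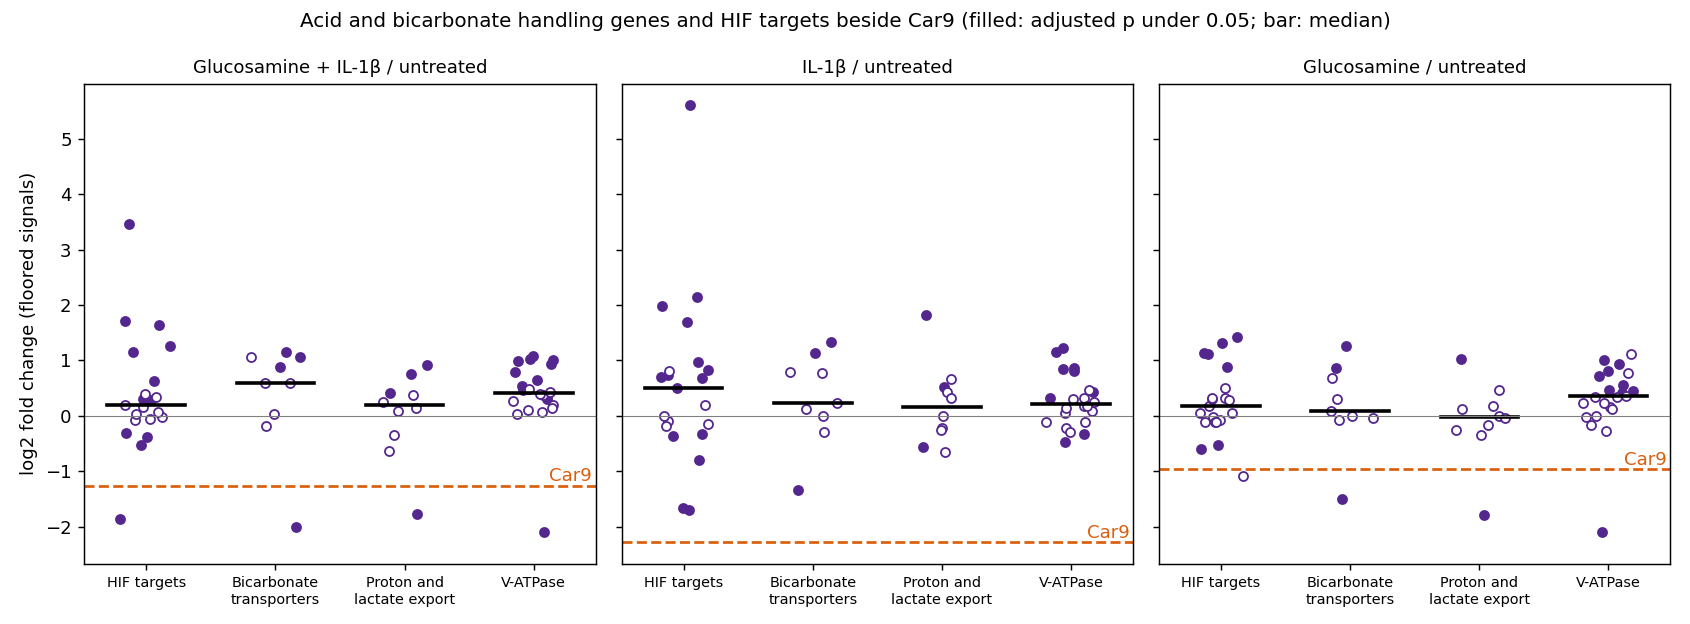
Log2 fold change (floored signals) against untreated cultures of HIF targets, bicarbonate transporters, genes of proton and lactate export and vacuolar proton pump subunits, with 1 point per gene, filled where adjusted p was under 0.05, and the list median as a bar. The dashed line is Car9 (−1.26 with both agents, −2.28 with IL-1β and −0.97 with glucosamine). In the IL-1β panel, the comparison that chose the genes, no listed gene lies below the line, while the highest point is Egln3, a rise of 5.60. The other panels do hold listed genes below the line. They include Slc4a4 (−2.00 with both agents, −1.50 with glucosamine), Slc16a7 (−1.77 and −1.79) and Atp6v1c2 (−2.10 in each, a lower bound in size).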

How the data were processed

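Per the study's methods, the authors read Affymetrix Rat Genome 230 2.0 arrays with Microarray Suite version 5 and used Probe Profiler to turn probe intensity into 1 linear, globally scaled value for each probe set. The sample labels name MAS5. The deposited intensity values include values below 0, and no further scaling was applied. Probe Profiler's weighting of probe pairs and background handling can shape low signals, and an intensity is no measure of level between probe sets. Of 31099 probe sets, 57 controls were left out. Gene symbols came from the platform annotation (20826 probe sets with 1 gene, 436 with several, 9780 with none).

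Log2 values floored at the 25th percentile were fitted for all 4 groups together in limma 3.58.1 (R 4.3.3, trended eBayes on 9 residual degrees of freedom), so that glucosamine with 2 arrays borrows its spread from the other groups. Probe sets at the floor on every array were left out. The scripts were tested on simulated data. The methods' own test, a one-way analysis of variance followed by Tukey's test on linear values, was kept as an alternative, beside other floors, scalings, filters, fits, probe sets, a replicate block and leaving out arrays. The number of arrays limits the precision.

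Named genes were all probe sets of the members, every other carbonic anhydrase, from each list up to 3 genes with the largest change among those that passed with no overlap of arrays, and the 3 genes nearest to each member whose F test passed. Marker values of Adipoq, Cfd, Lep, Pparg, Mb, and the means of Itpr1 and Itpr3 across groups, are given outside that rule. The members and lists (155 symbols, 131 on the array) were chosen with earlier results of these data known. Lists of leukocyte (6 genes on the array), endothelial (5) and erythroid (4) markers were read too: with IL-1β against untreated cultures 1, 2 and 1 rose and none fell. In that comparison 24.1% of all tested probe sets passed, in either direction.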

Additional observations from a re-analysis of the deposited data

Results flagged for a closer look

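Car9 with glucosamine plus IL-1β had 1 array apart from the other 3, replicate a at 447 against 406 to 411, with a gap of 0.87 of the range of the group. Car6 with IL-1β had 1 array apart, replicate d at 19.2 against 6.21 to 7.10, with a gap of 0.88 of the range. These were 2 of 20 groups of 4 arrays examined, and chance alone gives about 1 in 20.

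The effect of glucosamine on Car9 had opposite directions in the 2 settings, with every array higher in cultures with IL-1β and every array lower in cultures without it. The effects differed by 1.99 on the log2 scale, and this difference was not tested because it contains the comparison that chose the genes. For Car4 the difference of the 2 effects was −2.76 on the log2 scale (SE 0.64, adjusted p = 0.019 by limma), seen with 1 of its 2 probe sets. For Car5b it was 0.81 (SE 0.18, adjusted p = 0.013 by limma), and 0.58 (adjusted p = 0.49) with its second probe set.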

How the results depend on the processing

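Over 20 values of the 5 members and 507 alternatives of these, 485 kept their direction and their side of the threshold, 2 lost a call (Car3, both agents against glucosamine, with a floor of 32 or with the second probe set), 10 gained one (all Car12) and 10 changed sign, none of them past the threshold before or after. The 20 include Car3 with glucosamine and with both agents against untreated cultures, for which no p is given. They also include Car3 between both agents and IL-1β, where every array was under the floor. All 26, 26 and 25 alternatives of these Car3 values count among the 485. The methods' own test is not among the 507, and with it Car9 gained a call between both agents and glucosamine. The count of members that passed between both agents and glucosamine was 1, and it became 0 with a floor of 32, 2 with a replicate block by letter (Car12 added, adjusted p = 0.037 by limma), 2 without both replicate d arrays (Car12 added) and 2 with the methods' own test (Car3 and Car9). The Car3 difference of IL-1β from untreated cultures was −5.15, and −8.02 with the 10th percentile as floor, −3.84 with the 40th, −2.67 with 32, and −2.67 with the second probe set: its size is set by the floor. The untested Car8 difference of 1.17 became 0.28 with the 40th percentile as floor, 0 with 32 and 0.85 with quantile normalization. The called Car8 values kept their calls in all 25 alternatives, but their sizes also depend on the floor. With a floor of 32, glucosamine against untreated cultures went from 2.58 to 0.51. Both agents went from 2.71 to 0.64 against untreated cultures and from 1.53 to 0.64 against IL-1β.

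Those 10 were 2 for Car2 with glucosamine (−0.18, and 0.022 with quantile normalization, −0.46 to 0.11 leaving out 1 array), 6 for Car2 between both agents and IL-1β (−0.12, and 0.024 with the 40th percentile as floor, 0.065 with 32, 0.059 with the second probe set, −0.76 to 0.40 leaving out 1 array), 1 for Car8 between both agents and glucosamine (−0.025 with quantile normalization) and 1 for Car12 with glucosamine (−0.27 to 0.058 leaving out 1 array). Among the other carbonic anhydrases, 3 called values had the opposite sign with another probe set, which did not pass: Car4 (−0.12 with IL-1β and 0.58 between both agents and IL-1β) and Car11 (1391970_at, 1.20 with IL-1β). Uncalled values also changed sign for Car11 with 1374275_at (−0.43 between both agents and glucosamine, −0.13 between both agents and untreated cultures), for Car4 with glucosamine (−0.0043 with the replicate block) and for Car5b with glucosamine (0.0072 with quantile normalization, 0.0077 with 75th percentile scaling, 0.0093 with the replicate block, 0.11 with the second probe set, −0.078 to 0.072 leaving out 1 array). The untested Car12 difference of IL-1β from untreated cultures, 0.37, was −0.15 with the replicate block and −0.14 without replicate d of IL-1β. With the replicate block Car12 passed in all 3 comparisons with both agents (adjusted p = 0.0028 against untreated cultures, 0.00073 against IL-1β and 0.037 against glucosamine by limma). List counts that moved by over 1.5 times with any alternative kept within 1 to 3 (bicarbonate transporters higher with glucosamine, 2 as reported), 0 to 2 (genes of proton and lactate export higher with glucosamine, 1 as reported), 5 to 14 (vacuolar pump higher with glucosamine, 8), 1 to 5 (vacuolar pump higher, both agents against IL-1β, 4), 0 to 2 (vacuolar pump lower with IL-1β, 2), 4 to 9 (HIF targets higher with glucosamine, 5), 2 to 5 (HIF targets lower with IL-1β, 5) and 1 to 4 (bicarbonate transporters higher with both agents, 3), and the other such counts moved by 1 or 2.

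The labels do not say whether the replicate letters pair the samples, and the correlations do not settle it. In their deviations from the group means, the 16 same-letter pairs correlated at −0.17 to 0.80 (median −0.06), 7 of them over 0.1. The 46 different-letter pairs correlated at −0.67 to 0.56 (median 0.05), 14 of them over 0.1. Of 13 arrays, 6 correlated best with their own letter. With the letter as a block, 5755 probe sets passed for glucosamine against untreated cultures (4300 without), and without both replicate d arrays 7108. The cause was not tested. Quantile normalization put the median over all probe sets with IL-1β at 0, as against 0.10 on the log2 scale. Values under the floor carry no order, so no level of Car3 can be ranked among cultures with IL-1β.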
